A study of Rattus norvegicus with 6 samples.

Results

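This report describes 39 genes of the Notch and Hedgehog signalling pathways in primary neurons of dorsal root ganglia, the sensory ganglia that lie along the spinal cord. The genes were chosen by name, as rows of a table of 56748 genes, with 26 in the Notch pathway and 13 in the Hedgehog pathway. The cultures, labelled as rat, were given extracellular vesicles released either by innervated muscle (EVMu, 3 libraries) or by acutely denervated muscle (EVadMu, 3 libraries), and the labels name no genotype, strain, age, dose or time. EVMu was the reference, so a negative log2 fold change means a lower level in EVadMu, and without a vesicle-free group, lower in EVadMu and higher in EVMu are the same observation. The labels do not state whether replicates are separate cultures or animals, so p-values cover the spread among these libraries, which may be technical. Culture or sequencing batch and the kind of vesicle cannot be told apart.

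Notch receptors are membrane proteins that are cut when a Delta or Jagged ligand on a neighbouring cell binds them. The freed inner part enters the nucleus, joins the DNA-binding protein RBPJ and a Mastermind coactivator, and switches on repressor genes of the Hes and Hey families. Hedgehog ligands are secreted, bind Patched (Ptch1) and thereby release Smoothened (Smo), which lets Gli transcription factors switch on targets that include Gli1, Ptch1 and Hhip. In peripheral nerve, desert hedgehog (Dhh) is known as a Schwann cell product that signals to the sheath around nerve bundles, and Notch signalling is known in satellite glia, Schwann cells and vessels.

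The promoters of a few members show the letters that the nuclear proteins of both pathways are known to read, and they are printed because the genes behind them moved in different directions or by different amounts. The sequences are from RefSeq on the rat build GRCr8, 250 bases before to 50 after the annotated start, 5′ to 3′, with matches in capitals. The RBPJ heptamer GTGGGAA and the Gli nonamer GACCACCCA were searched on both strands, and the motifs do not overlap in the sequences shown. Hes1 (chr11:84212996-84213295, minus strand), Hey2 (chr1:28640850-28641149, plus strand) and Lfng (chr12:19152869-19153168, minus strand) hold the RBPJ heptamer, and Ptch1 (chr17:1555321-1555620, plus strand) holds the Gli nonamer on the opposite strand, printed as TGGGTGGTC.
Hes1: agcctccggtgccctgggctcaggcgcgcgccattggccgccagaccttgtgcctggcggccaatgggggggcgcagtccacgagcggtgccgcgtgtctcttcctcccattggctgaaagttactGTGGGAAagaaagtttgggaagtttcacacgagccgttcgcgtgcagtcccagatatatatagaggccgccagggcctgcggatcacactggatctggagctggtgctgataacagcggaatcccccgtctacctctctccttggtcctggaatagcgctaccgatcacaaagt
Hey2: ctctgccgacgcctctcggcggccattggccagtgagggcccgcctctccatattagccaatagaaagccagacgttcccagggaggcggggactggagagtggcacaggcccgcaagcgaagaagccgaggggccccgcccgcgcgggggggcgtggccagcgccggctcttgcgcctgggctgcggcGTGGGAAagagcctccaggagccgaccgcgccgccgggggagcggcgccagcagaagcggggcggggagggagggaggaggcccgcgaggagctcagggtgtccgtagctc
Lfng: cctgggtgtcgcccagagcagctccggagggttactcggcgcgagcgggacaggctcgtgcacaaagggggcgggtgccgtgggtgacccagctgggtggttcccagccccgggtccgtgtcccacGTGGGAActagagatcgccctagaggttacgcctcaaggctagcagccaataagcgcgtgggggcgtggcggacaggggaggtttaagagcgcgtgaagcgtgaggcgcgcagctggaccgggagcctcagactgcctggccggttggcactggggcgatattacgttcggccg
Ptch1: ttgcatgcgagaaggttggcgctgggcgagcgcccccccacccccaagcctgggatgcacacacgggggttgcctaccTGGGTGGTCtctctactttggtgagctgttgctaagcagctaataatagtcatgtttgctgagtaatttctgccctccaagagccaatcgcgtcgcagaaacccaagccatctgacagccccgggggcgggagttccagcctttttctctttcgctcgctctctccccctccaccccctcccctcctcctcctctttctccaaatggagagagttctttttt
The heptamer starts at base -124 from the start site in Hes1 and in Lfng and at -61 in Hey2, and the Gli match starts at -172 in Ptch1. Of the 39 members, 32 matched a promoter by symbol. The heptamer was present for 7 of them (Cdon, Dll1, Hes1, Hes5, Hey2, Lfng and Sufu), against 6.29% of all 33469 promoters in the table, and the Gli nonamer for Ptch1 alone, against 0.385%. The members were counted by gene, and 2 of them have 2 promoters in the table. The percentages are per promoter, so the units differ. A match is a description of letters in this window and not a binding site.

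The 6 libraries held 14853115 to 17019877 counts each. Of the 39 members, 37 passed the expression filter and were tested, and the filter removed Hes5 and Ihh. By the edgeR quasi-likelihood F-test, Benjamini-Hochberg adjusted over all 16993 genes tested, 29 members were lower in EVadMu at an adjusted p under 0.05, 5 were higher and 3 did not pass. Over all genes tested, 40.8% were called lower, 39.2% higher and 80.0% in either direction, so that a call by itself was common in this comparison, and the members' shares were 78.4% lower and 13.5% higher. At a change of at least 2-fold, 20 members were lower and 3 higher, where the shares over all genes were 23.5% and 17.6%. The groups did not overlap for 33 tested members, 28 lower and 5 higher in EVadMu, where 80.7% of all genes tested had no overlap. The median log2 fold change was -1.33 over the members, -0.76 over the 25 tested Notch members and -1.44 over the 12 tested Hedgehog members, beside -0.02 over all genes tested.

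**Figure D1:**
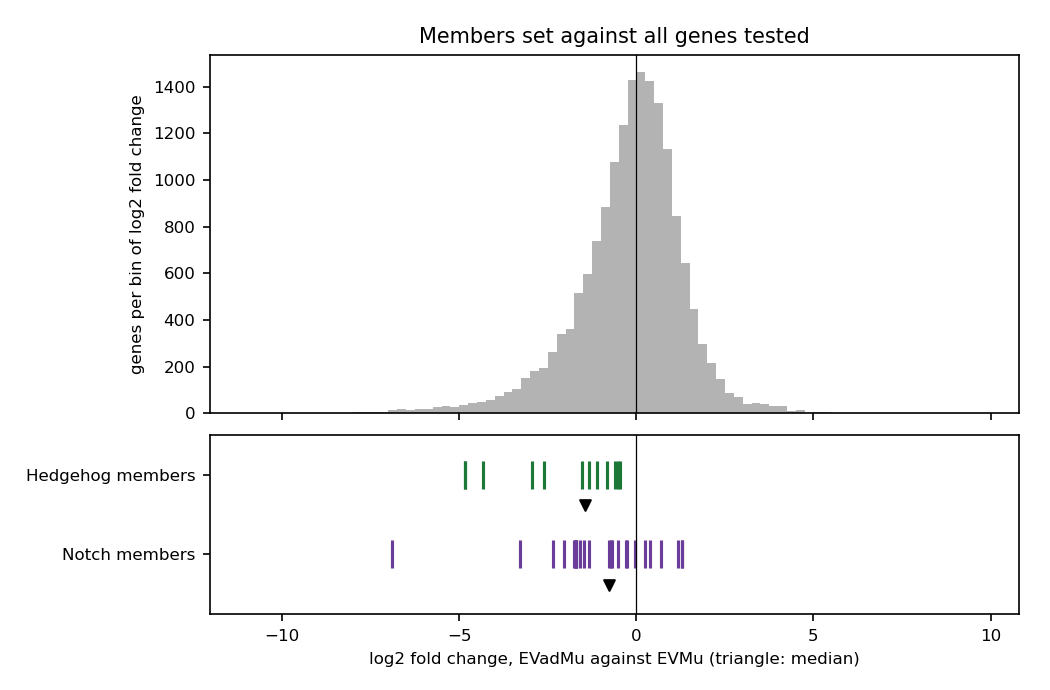
The upper panel shows the number of genes tested per bin of log2 fold change (EVadMu against EVMu) for all 16993 genes, and the lower panel shows each tested Notch and Hedgehog member as a tick, with a triangle at the median. All 12 Hedgehog members lie below 0, while the 25 Notch members reach from -6.89 to 1.29.

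Markers of several other cell types were present in these cultures, and most of them were lower in EVadMu. Of 20 fibroblast markers 19 were lower and 1 higher, and their summed level was 9239 to 9321 CPM in EVMu and 785 to 805 CPM in EVadMu. Schwann and satellite glia markers (17 of 19 lower, 1 higher) summed to 6490.0 to 6702 CPM and to 1851 to 1887 CPM. Endothelial and mural cell markers (15 of 16 tested lower, 1 higher) summed to 890.2 to 920.5 CPM and to 191 to 196 CPM. Of 13 tested macrophage and leukocyte markers 11 were lower and 1 higher, with sums of 110.4 to 117 and 138 to 144 CPM, in which the one gene that rose, Cd68, had a log2 fold change of 3.36 ± 0.069. Pan-neuronal and sensory markers (14 of 18 lower, 1 higher) summed to 7217 to 7468 and 4524 to 4653 CPM, so the labelled cell type's markers were present in both groups. Proliferation markers (18 of 20 lower, 1 higher) summed to 2502 to 2561 and 362 to 388 CPM. No marker in these lists had 0 counts over either group. Whether the shares of these cell types had a part in the results below was not tested, and in bulk libraries fewer cells of a type and less RNA per cell cannot be told apart.

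All 4 Notch receptors were lower in EVadMu, by 1.199-fold to 5.09-fold. Notch1, the receptor best known from neural and glial progenitors, was at 289, 293 and 287 CPM in the EVMu libraries and 115, 114 and 118 CPM in the EVadMu libraries. CPM here and below are read counts scaled to library size with TMM factors, and the groups lay far apart, with a log2 fold change of -1.33 ± 0.037 (SE, n = 3 per group; adjusted p = 7.15e-27). Notch2, a receptor of many tissues, changed least, at 108, 110.5 and 107 CPM in the EVMu libraries and 96.4, 86.2 and 88.5 CPM in the EVadMu libraries. Its groups did not overlap, but the difference was small, with a log2 fold change of -0.26 ± 0.048 (adjusted p = 7.53e-06). Notch3, known from the smooth muscle and pericytes of vessels, was at 36.9, 31.6 and 36.03 CPM in the EVMu libraries and 6.95, 6.86 and 6.703 CPM in the EVadMu libraries. The EVadMu libraries were close to one another and 5.09-fold lower, with a log2 fold change of -2.35 ± 0.1. Notch4, known from endothelium, was at 40.97, 36.3 and 38.5 CPM in the EVMu libraries and 13.4, 11.9 and 9.87 CPM in the EVadMu libraries, a log2 fold change of -1.72 ± 0.094. The summed level of the 4 receptors was 468 to 475 CPM in EVMu and 219 to 232 CPM in EVadMu. In the same libraries the mural marker Pdgfrb went from 116 ± 2.83 to 9.68 ± 0.375 CPM and the endothelial marker Cdh5 from 101 ± 4.299 to 40.6 ± 0.777 CPM (SD, n = 3). Other vessel markers fell less, with log2 fold changes of -1.21 ± 0.072 for Rgs5 and -0.91 ± 0.14 for Flt1. Vwf rose, from 10.25 ± 0.54 to 28.06 ± 0.714 CPM, the 1 higher marker of the endothelial and mural list, where 15 of 16 tested were lower. The part of vessel cells in the falls of the receptors was not tested.

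Among the ligands, the Jagged genes parted. Jag1 was at 56.8, 53.6 and 55.2 CPM in the EVMu libraries and 61.5, 67.1 and 67.5 CPM in the EVadMu libraries, above EVMu in all 3 EVadMu libraries by a small margin, with a log2 fold change of 0.24 ± 0.055 (adjusted p = 0.000151). Jag2 went the other way, with 38.5, 39.8 and 43.0 CPM in the EVMu libraries and 14.01, 12.01 and 11.4 CPM in the EVadMu libraries and a log2 fold change of -1.70 ± 0.088. Dll4, a ligand known from sprouting endothelium, was at 9.73, 10.3 and 7.71 CPM in the EVMu libraries and 1.67, 2.201 and 2.78 CPM in the EVadMu libraries. No EVadMu library reached the lowest EVMu library, and the log2 fold change was -2.05 ± 0.2. Dll1, a Delta ligand of neural progenitors, was low throughout, at 2.19, 2.399 and 2.95 CPM in the EVMu libraries and 0.9302, 2.52 and 1.01 CPM in the EVadMu libraries. EVadMu replicate 2 lay within the EVMu range while the other EVadMu libraries lay below it, so the groups overlapped, and the log2 fold change was -0.76 ± 0.32 (adjusted p = 0.031). That call was lost without EVMu replicate 2 (adjusted p = 0.0503) or 3 (0.133), or without EVadMu replicate 1 (0.188) or 3 (0.149), and without EVadMu replicate 2 the log2 fold change was -1.36. Dll3, a Delta family member that is known to act inside the cell, had 7, 1 and 12 reads in the EVMu libraries and 10, 10 and 12 in the EVadMu libraries, and its difference did not pass (95% interval of the log2 fold change -0.39 to 1.79, adjusted p = 0.229).

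**Figure D2:**
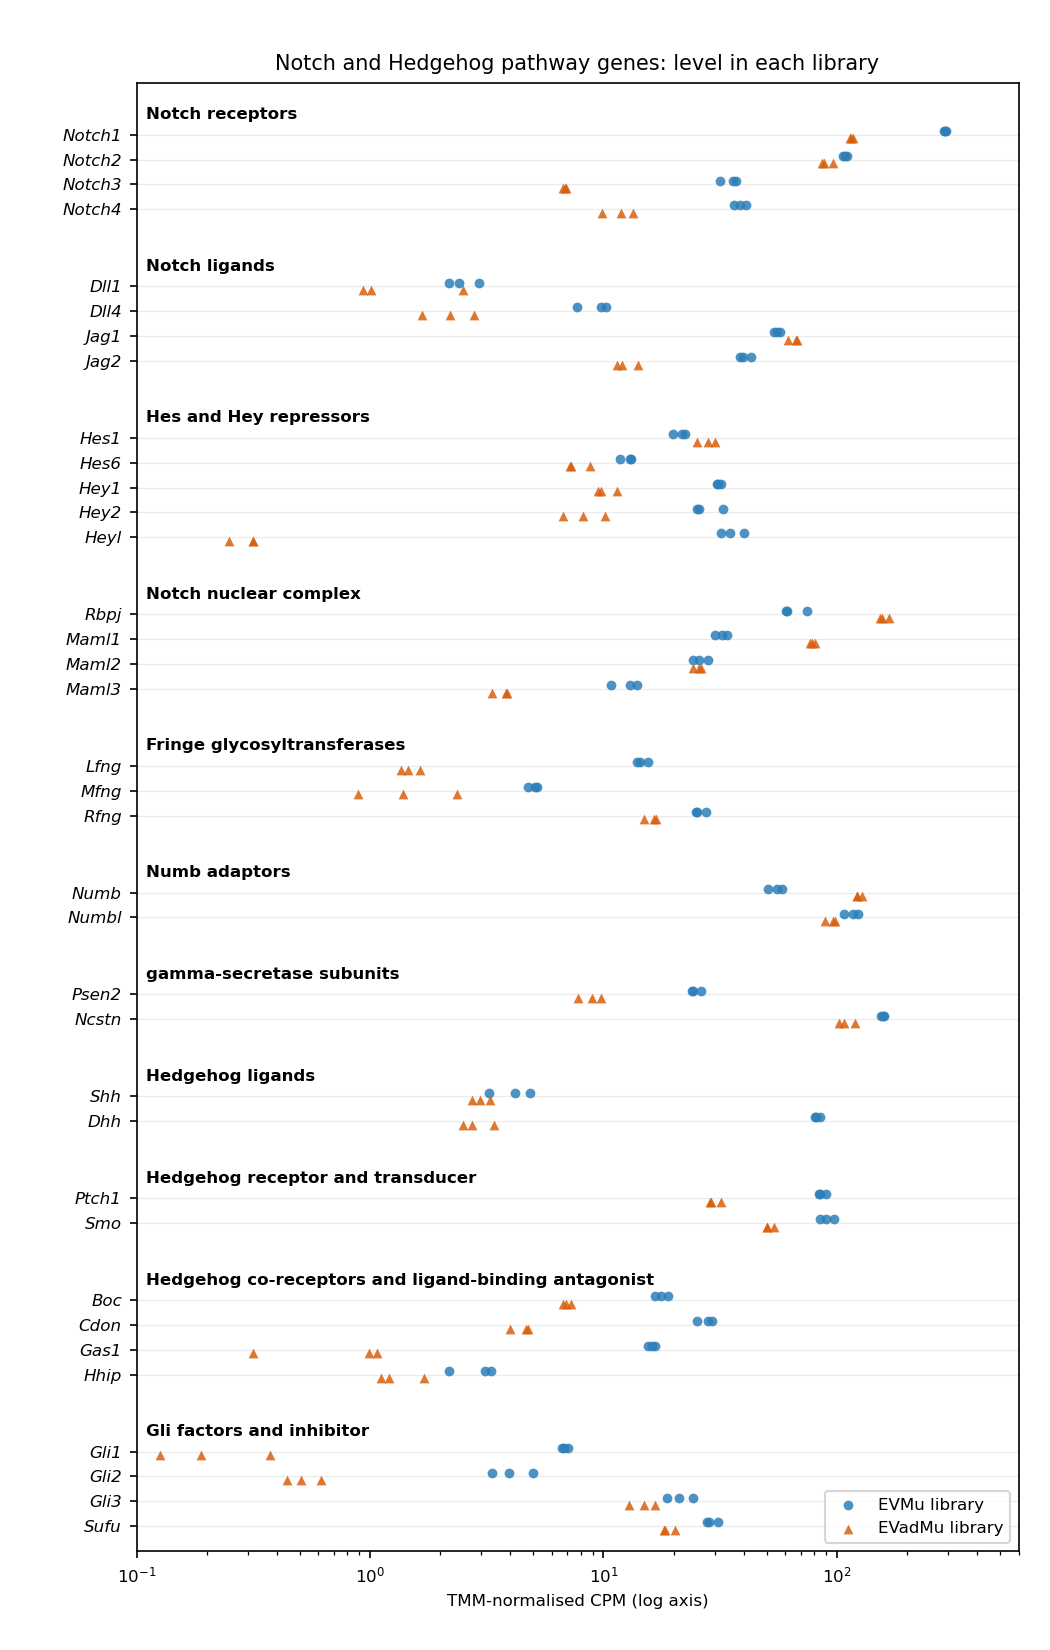
Level of each member with a mean of at least 1 CPM in either group, in TMM-normalised CPM on a log axis, with 1 circle per EVMu library and 1 triangle per EVadMu library, ordered by role. The EVadMu triangles lie left of the circles for most genes, and lie right of them for Jag1, Hes1, Rbpj, Maml1 and Numb.

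The repressor genes of the Hes and Hey families did not move together. Heyl, a Hey repressor known from vascular smooth muscle, had the largest fall of all members and held rank 41 from the lowest fold change among the 16993 genes tested. It was at 31.8, 40.1 and 35.01 CPM in the EVMu libraries and 0.248, 0.315 and 0.316 CPM in the EVadMu libraries, which is 494 to 618 reads against 4 or 5 reads per library. The EVadMu level was 119-fold lower, with a log2 fold change of -6.89 ± 0.19 (adjusted p = 8.02e-27). Hey1 was at 31.9, 30.9 and 30.8 CPM in the EVMu libraries and 11.5, 9.81 and 9.49 CPM in the EVadMu libraries. Its relative Hey2 was at 32.5, 25.2 and 25.7 CPM in the EVMu libraries and 10.1, 6.73 and 8.16 CPM in the EVadMu libraries. Both Hey genes were about equally lower, with log2 fold changes of -1.60 ± 0.096 and -1.74 ± 0.12, and the groups did not overlap. Hes1, the most widely used Notch target and the carrier of the heptamer shown above, rose, with 19.8, 21.6 and 22.4 CPM in the EVMu libraries and 28.1, 25.3 and 30.2 CPM in the EVadMu libraries. The margin between the highest EVMu and the lowest EVadMu library was narrow, and the log2 fold change was 0.39 ± 0.086 (adjusted p = 0.000129). Hes6, which is known to oppose Hes1 and is not itself a standard Notch target, was at 11.8, 13.1 and 12.97 CPM in the EVMu libraries and 7.19, 7.23 and 8.73 CPM in the EVadMu libraries, a log2 fold change of -0.71 ± 0.13. Hes5, a target known from neural progenitors, had 0, 2 and 3 reads in EVMu and 0 in all EVadMu libraries, too few to test. Smooth muscle and mural markers differed widely in these libraries. Acta2, which fell most in the endothelial and mural list, went from 63.1 ± 0.967 to 0.606 ± 0.0742 CPM, while Myh11 and Rgs5 had log2 fold changes of -3.22 ± 0.19 and -1.21 ± 0.072, and Tagln, too low to test, overlapped between the groups. The part of smooth muscle cells in the fall of Heyl was not tested.

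The nuclear partners of Notch were split, with Rbpj and Maml1 higher in EVadMu, Maml3 lower and Maml2 without a called change. Rbpj, which encodes the DNA-binding protein of the pathway, was at 61.1, 74.5 and 60.9 CPM in the EVMu libraries and 157, 153 and 168 CPM in the EVadMu libraries. All EVadMu libraries were above all EVMu libraries, 2.43-fold on the fitted scale, with a log2 fold change of 1.28 ± 0.056 (adjusted p = 4.87e-21). The coactivator gene Maml1 rose by nearly the same amount, with 30.02, 33.7 and 32.2 CPM in the EVMu libraries and 78.3, 76.7 and 80.6 CPM in the EVadMu libraries and a log2 fold change of 1.29 ± 0.058. Its relative Maml2 was at 25.7, 27.9 and 24.1 CPM in the EVMu libraries and 25.7, 24.3 and 26.3 CPM in the EVadMu libraries. These levels overlapped, and the difference did not pass (95% interval of the log2 fold change -0.19 to 0.14, adjusted p = 0.783). Maml3 fell, with 13.01, 10.8 and 13.9 CPM in the EVMu libraries and 3.35, 3.84 and 3.86 CPM in the EVadMu libraries and a log2 fold change of -1.78 ± 0.16. Summed over Rbpj and the 3 coactivators, levels were 129.8 to 147 CPM in EVMu and 258 to 278 CPM in EVadMu. The summed level of the Hes and Hey members was 127 to 131 and 49.4 to 57.2 CPM. That sum includes Hes6, and Hes1 rose within it, so it does not stand for each target.

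All 3 Fringe genes, whose enzymes add sugars to Notch and so tune which ligand it answers to, were lower. Lfng, whose promoter holds the heptamer, was at 13.9, 15.6 and 14.3 CPM in the EVMu libraries and 1.36, 1.64 and 1.46 CPM in the EVadMu libraries. The groups were far apart, 9.79-fold, with a log2 fold change of -3.29 ± 0.17 (adjusted p = 1.36e-18). Mfng was at 4.77, 5.19 and 5.099 CPM in the EVMu libraries and 2.36, 1.38 and 0.885 CPM in the EVadMu libraries, with a wide spread among the EVadMu libraries and a log2 fold change of -1.69 ± 0.26. Rfng changed least of these, with 25.0, 27.6 and 25.1 CPM in the EVMu libraries and 14.9, 16.8 and 16.5 CPM in the EVadMu libraries and a log2 fold change of -0.69 ± 0.091.

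The Numb adaptors, which are known to hold Notch activity down at cell division and to act in endocytosis, moved in opposite directions. Numb was at 58.3, 55.2 and 50.9 CPM in the EVMu libraries and 122, 129 and 122 CPM in the EVadMu libraries, 2.27-fold higher in EVadMu, with a log2 fold change of 1.18 ± 0.051 (adjusted p = 4.85e-21). Numbl was at 108, 123 and 117 CPM in the EVMu libraries and 98.6, 96.04 and 89.04 CPM in the EVadMu libraries, slightly lower and without overlap, with a log2 fold change of -0.29 ± 0.05 (adjusted p = 2.81e-06). For the gamma-secretase, the membrane protease that frees the inner part of Notch, both members were lower. Psen2, a catalytic subunit, was at 24.2, 23.9 and 26.2 CPM in the EVMu libraries and 8.93, 9.75 and 7.78 CPM in the EVadMu libraries, a log2 fold change of -1.49 ± 0.11. Ncstn, the subunit that takes up substrates, was at 159, 157 and 154 CPM in the EVMu libraries and 107, 119.8 and 102 CPM in the EVadMu libraries, a log2 fold change of -0.52 ± 0.047.

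**Figure D3:**
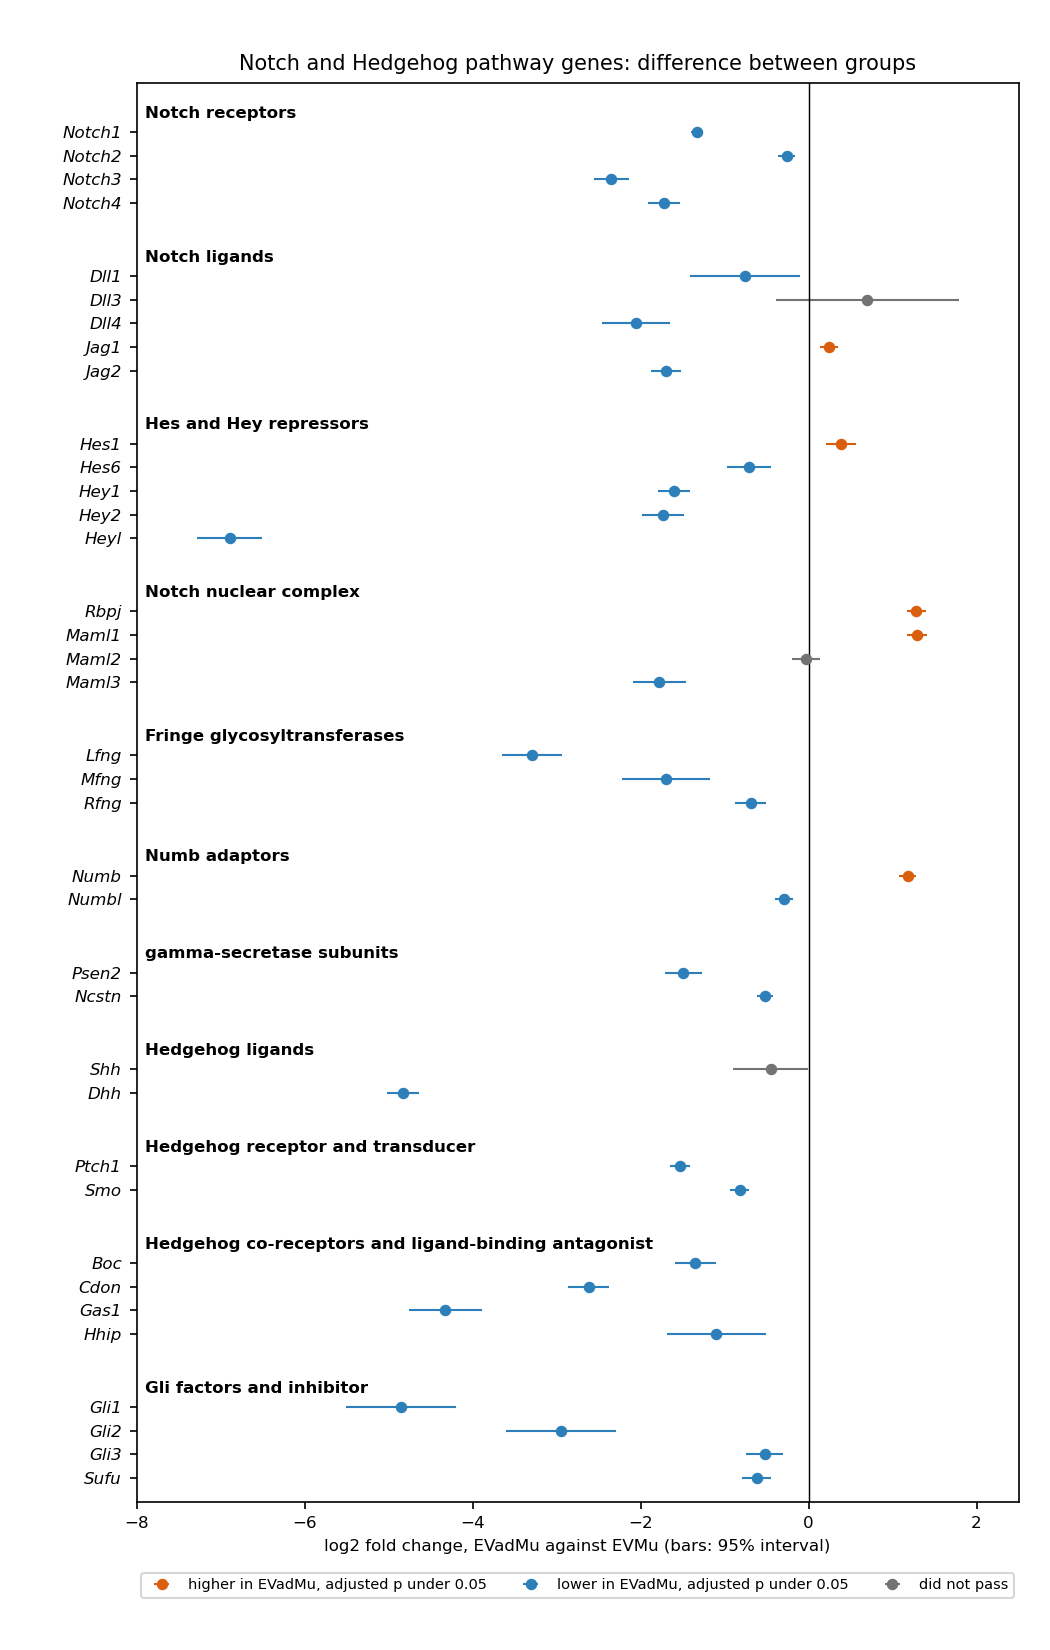
Log2 fold change (EVadMu against EVMu) of the 37 tested members by role, with 95% intervals from the model. Points right of 0 are the 5 genes that rose, plus Dll3, which did not pass, and Heyl stands farthest left at -6.89.

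In the Hedgehog pathway 11 of 12 tested members were lower in EVadMu and 0 were higher. The ligand Dhh had the second lowest fold change of this pathway and rank 237 from the lowest of all genes tested. It was at 84.3, 81.5 and 80.5 CPM in the EVMu libraries and 2.73, 2.52 and 3.42 CPM in the EVadMu libraries. The EVadMu libraries held 40 to 54 reads against 1258 to 1421 in EVMu, 28.4-fold lower, with a log2 fold change of -4.83 ± 0.093 (adjusted p = 1.66e-31). The other ligands were low in both groups. Shh was at 3.22, 4.86 and 4.19 CPM in the EVMu libraries and 2.73, 3.27 and 2.97 CPM in the EVadMu libraries, with overlapping groups and a difference that did not pass (95% interval -0.90 to -0.01, adjusted p = 0.0574), although without EVMu replicate 1 it did (adjusted p = 0.0201). Ihh had 5, 1 and 4 reads in the EVMu libraries and 6, 9 and 5 in the EVadMu libraries, too few to test. As a result Dhh held 94.3 to 96.0% of the counts of the 3 ligand genes in EVMu and 39.6 to 50.9% in EVadMu. The Schwann and satellite glia markers, 17 of 19 of them lower, did not move evenly. The neuregulin receptor gene Erbb3 went from 411 ± 8.98 to 11.1 ± 0.759 CPM, while the glial transcription factor gene Sox10 went from 383 ± 7.42 to 217 ± 6.52 CPM. S100b, at a log2 fold change of 0.04 ± 0.049, did not pass. Ednrb, the 1 higher marker of the list, rose from 163 ± 1.06 to 320 ± 8.36 CPM. The part of glial cell number in the fall of Dhh was not tested.

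The receptor and transducer genes were lower as well. Ptch1, the ligand receptor and a target of the pathway, was at 83.7, 89.5 and 84.8 CPM in the EVMu libraries and 28.9, 31.8 and 28.6 CPM in the EVadMu libraries. The groups were apart by 2.89-fold, with a log2 fold change of -1.53 ± 0.059 (adjusted p = 1.05e-22). Smo, which carries the signal onward once Ptch1 is bound, was at 89.4, 97.7 and 84.5 CPM in the EVMu libraries and 53.8, 50.0 and 50.2 CPM in the EVadMu libraries, and its log2 fold change was smaller, -0.82 ± 0.056 (adjusted p = 2.24e-15).

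All 3 co-receptors fell by at least 2-fold, as did the antagonist Hhip. Gas1, a membrane-anchored co-receptor, was at 15.5, 16.1 and 16.6 CPM in the EVMu libraries and 0.992, 1.07 and 0.316 CPM in the EVadMu libraries. EVadMu replicate 3 was the lowest with 5 reads, against 16 and 17 in the other EVadMu libraries, and the group was 20.03-fold lower with a log2 fold change of -4.32 ± 0.21. Cdon was at 25.1, 29.3 and 28.04 CPM in the EVMu libraries and 4.78, 3.96 and 4.68 CPM in the EVadMu libraries, a log2 fold change of -2.62 ± 0.12. Its relative Boc was at 17.7, 18.9 and 16.6 CPM in the EVMu libraries and 6.88, 7.296 and 6.703 CPM in the EVadMu libraries, with a log2 fold change of -1.35 ± 0.12, so both co-receptors of the immunoglobulin family were lower without overlap. Hhip, a decoy for Hedgehog ligands and a target of the pathway, was at 2.19, 3.31 and 3.12 CPM in the EVMu libraries and 1.12, 1.698 and 1.202 CPM in the EVadMu libraries. These levels are low, and the log2 fold change was -1.10 ± 0.29 (adjusted p = 0.000921).

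Among the Gli factors the fall was graded. Gli1, a target that is widely read as a sign of pathway activity, was at 7.09, 6.68 and 6.799 CPM in the EVMu libraries and 0.372, 0.126 and 0.1897 CPM in the EVadMu libraries. That is 103 to 120 reads against 2 to 6 reads per library, 28.9-fold lower, with a log2 fold change of -4.85 ± 0.32 (adjusted p = 7.5e-16). Gli2, the main activator, was at 3.93, 4.99 and 3.34 CPM in the EVMu libraries and 0.6201, 0.4403 and 0.506 CPM in the EVadMu libraries, which is 59 to 77 reads against 7 to 10 reads per library, with a log2 fold change of -2.94 ± 0.32. Gli3, which acts mostly as a repressor in the absence of ligand, was at 21.1, 24.1 and 18.8 CPM in the EVMu libraries and 16.6, 14.97 and 12.8 CPM in the EVadMu libraries. Gli3 was lower by only 1.44-fold, with a log2 fold change of -0.52 ± 0.11 (adjusted p = 4.98e-05). Sufu, the protein that holds Gli factors in the cytoplasm, was at 27.7, 28.3 and 30.8 CPM in the EVMu libraries and 20.3, 18.2 and 18.3 CPM in the EVadMu libraries, a log2 fold change of -0.61 ± 0.085. Of the 20 fibroblast markers 19 were lower too, by widely different amounts. Col1a1 went from 1283 ± 21.4 to 14.8 ± 0.1701 CPM and Pdgfra from 37.03 ± 0.836 to 18.4 ± 1.35 CPM. Thy1, the 1 higher marker of that list, went from 253 ± 9.87 to 272 ± 0.187 CPM. The part of fibroblasts in the falls of Gli1, Gli2 and Gas1 was not tested.

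Ratios between members of a family within a library do not depend on how libraries are scaled, and they were computed after the members' counts had been seen. Over the 51 pairs of tested members that share a role, the log2 ratio of counts did not overlap between the groups for 43, where an exact two-sided permutation test of 3 against 3 libraries cannot go below p = 0.1 and gave that value for each of these 43 pairs. The share for other pairs of genes was not computed, and since 80.7% of single genes tested had no overlap, the count of pairs is a description and not a result about these families. The log2 ratio of Notch2 to Notch3 was 1.55, 1.81 and 1.56 in EVMu and 3.79, 3.65 and 3.72 in EVadMu. For Jag1 to Jag2 it was 0.56, 0.43 and 0.36 in EVMu and 2.13, 2.48 and 2.56 in EVadMu. For Numb to Numbl it was -0.88, -1.15 and -1.20 in EVMu and 0.30, 0.42 and 0.45 in EVadMu, so that the order of their counts changed between the groups. Hes1 against Hey1 also changed order, with -0.69, -0.51 and -0.46 in EVMu and 1.29, 1.36 and 1.67 in EVadMu. The ratio of Maml1 to Maml3 was 1.20, 1.64 and 1.21 in EVMu and 4.53, 4.31 and 4.37 in EVadMu. In contrast, Rbpj to Maml1 was 1.02, 1.14 and 0.92 in EVMu and 1.00, 1.00 and 1.05 in EVadMu, Hey1 to Hey2 was -0.03, 0.29 and 0.26 in EVMu and 0.18, 0.54 and 0.22 in EVadMu and Gli3 to Sufu was -0.40, -0.23 and -0.72 in EVMu and -0.29, -0.28 and -0.51 in EVadMu, and these 3 pairs overlapped between the groups. The receptor Ptch1 against its partner Smo was at -0.10, -0.13 and 0.01 in EVMu and -0.90, -0.65 and -0.81 in EVadMu, a shift toward Smo in every EVadMu library.

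**Figure D4:**
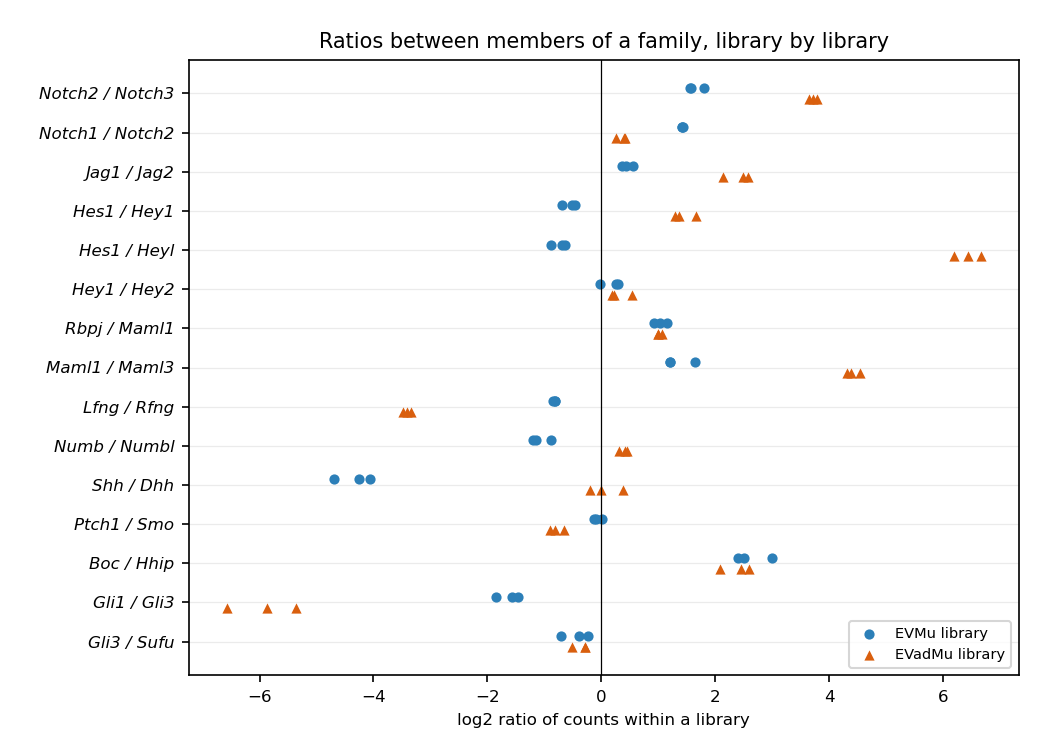
Log2 ratio of the counts of 2 members of a role in each library (0.5 added to each count), for 15 of the 51 pairs, with circles for EVMu and triangles for EVadMu. Hes1 to Heyl and Shh to Dhh show the widest gaps between the groups among the pairs drawn, and Hey1 to Hey2, Rbpj to Maml1, Boc to Hhip and Gli3 to Sufu overlap.

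Other genes of both pathways moved in both directions, though those of the Hedgehog list were mostly lower. The lists were made from general knowledge of the pathways, with earlier results of these data known. Of 44 other Notch pathway genes 43 were tested, 18 were higher and 23 lower, with a median log2 fold change of -0.24, which was -0.16 without EVMu replicate 3. These were 41.9% and 53.5% of those tested, beside 39.2% higher and 40.8% lower over all genes tested, so a split in direction was general in this comparison. Adam10, a sheddase that cuts Notch, fell from 452 ± 6.13 to 117 ± 1.49 CPM, and Neurl1b, a ubiquitin ligase acting on ligands, fell from 33.7 ± 3.21 to 0.689 ± 0.104 CPM. The corepressor gene Tle3 had a log2 fold change of -0.97 ± 0.04. Psenen, the smallest gamma-secretase subunit, rose from 28.3 ± 0.961 to 90.5 ± 2.85 CPM, against the direction of Psen2 and Ncstn, and the Dishevelled gene Dvl2 and the Deltex gene Dtx3 had log2 fold changes of 2.04 ± 0.051 and 1.23 ± 0.045. Of 44 other Hedgehog pathway genes, all tested, 9 were higher and 28 lower (20.5% and 63.6%), with a median of -0.78. Ccnd1, a cell cycle gene that Gli factors and many other inputs induce, fell from 403 ± 5.54 to 77.8 ± 1.82 CPM. Arrb1, a beta-arrestin, fell from 468 ± 6.79 to 116 ± 3.06 CPM, while Disp2, of the family that releases Hedgehog ligands, and Evc, a ciliary partner of Smo, had log2 fold changes of -2.08 ± 0.047 and -2.42 ± 0.086. The genes Smurf1, Arl13b, Cul3 and Csnk1a1, which act in ubiquitination, the cilium or Gli phosphorylation, rose, with log2 fold changes of 1.20 ± 0.038, 0.83 ± 0.073, 0.49 ± 0.039 and 0.41 ± 0.03.

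Some members lie beside or within other genes, and the library protocol names no step that marks strand. In the rat RefSeq annotation, used here only for names and neighbours, 8 of the 39 members meet another protein-coding gene. Dhh meets Tuba1c, which was at 144.5 ± 14.2 and 151 ± 1.15 CPM and did not pass, and Gli1 meets Arhgap9, which was at 0.437 and 0.168 CPM and was not tested. Numb meets Papln, which fell by 0.82 on the log2 scale, the opposite direction to Numb. Dll1 meets Fam120b, which rose from 51.0 ± 2.30 to 149 ± 2.86 CPM, and Maml2 meets Ccdc82, which fell from 69.8 ± 2.33 to 19.4 ± 0.75 CPM. Hes5 meets Pank4, which was at 26.8 ± 1.90 and 28.1 ± 1.65 CPM and did not pass, and Dll4 and Cdon meet genes named Dll4l1 and Cdonl1. The reads were counted on the mouse build mm39, where these overlaps were not checked. How reads in such overlaps were counted is not given in the sources used here, so the low levels of Dll1 and Hes5 and the level of Maml2 are uncertain.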

How the data were processed

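Poly(A)-selected RNA of 6 libraries was sequenced. Per the submitters' processing notes, CASAVA 1.8, HISAT2, SAMtools and featureCounts were used with the mouse build mm39, without stated roles or settings. The authors deposited raw read counts per gene, all whole numbers, with no normalisation. The labels name rat and the identifiers are mouse. Rat reads aligned to mouse sequence would be lost unevenly among genes, and whether this occurred was not tested. The RefSeq tables used for promoters and neighbouring genes are rat (GRCr8). All 39 member symbols were found among the genes used for neighbours, and 32 among the promoters.

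The analysis used edgeR 4.0.16 in R 4.3.3 (default expression filter with minimum count 10 and minimum total 15, TMM factors, quasi-likelihood F-test, Benjamini-Hochberg adjustment over 16993 genes, threshold 0.05). Ranges of log2 fold changes are 95% intervals from that model, and its standard error is the fold change divided by the root of F. Mean levels are CPM with the SD over 3 libraries. Other settings tried were scaling by RLE, by upper quartiles or not at all, testing every gene with a count, testing only genes with at least 20 counts in 3 libraries and a mean CPM of 1 or more, adding replicate number as a block, DESeq2 1.42.0, voom in limma 3.58.1, and omitting single libraries. The scripts were tested on simulated data. Same-group libraries differed by 2.10 to 3.13 times what counting noise gives, so none was treated as a repeat deposit of another, which does not show that they came from separate cultures.

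Groups and replicate numbers came from the sample titles. Values in every library are given for tested members with a mean of at least 1 CPM in either group, and other members are given by reads. From each list of other pathway genes, the rule names up to 4 called genes in each direction with the smallest p, and not every gene chosen this way is given here. The members, roles and lists were chosen with earlier results of these data known.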

Additional observations from a re-analysis of the deposited data

How the results depend on the processing

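The counts of called members were stable over the alternatives run, with 5 higher in each and 28 to 30 lower. Leaving out each library in turn gave 5 higher and 28 to 30 lower. Of the 34 called members, 33 kept their direction and their call under every alternative, and the exception was Dll1, whose call was lost with DESeq2 (adjusted p = 0.0765) and without 4 of the 6 libraries. Shh passed with upper-quartile factors (adjusted p = 0.0346) and with no scaling factors (0.0187), where its log2 fold changes were -0.50 and -0.57. Maml2, which did not pass, ranged from -0.083 to 0.022 on leaving out single libraries, turning above 0 without EVMu replicate 2 (0.022) and without EVadMu replicate 2 (0.020). With no scaling factors the median log2 fold change of all genes tested moved from -0.02 to -0.13, that of the members from -1.33 to -1.44, that of the other Notch genes to -0.35 and that of the other Hedgehog genes to -0.90, so these moved by about the same amount. Leaving out single libraries gave -0.25 to -0.16 for the other Notch genes, the last without EVMu replicate 3.

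Libraries with the same replicate number shared no visible deviation, with correlations of their deviations from the group means of -0.01 to -0.004. That cannot show that the libraries were unpaired by design, since pairing with little shared effect would look the same. With the replicate number as a block, 5 members were higher and 29 lower, and 6557 genes over the whole table were higher and 6852 lower. Depth limits Hes5, Ihh and Dll3, with at most 12 reads per library, and Gli1, Gli2, Heyl and Gas1 in EVadMu, with 2 to 17. It also limits Mfng, with 14 reads in EVadMu replicate 3, and Dll1, with 15 and 16 reads in EVadMu replicates 1 and 3.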
